A study of Mus musculus with 22 samples.

Results

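The 7 genes described here encode the pore-forming kainate receptor subunits (Grik1, Grik2, Grik3, Grik4 and Grik5) and the auxiliary proteins Neto1 and Neto2. They were chosen by gene name, with earlier results of these data known, from a matrix of 23361 genes. All 7 were among the 16978 genes whose mean over all libraries reached 0.1 FPKM. FPKM is the fragments mapped to a gene, scaled to its exon length and to all fragments mapped in the library. The matrix holds mRNA sequencing values of microdissected hippocampal CA1 from 22 female F1 mice from a cross of Swiss Webster and DBA/C57BL6, 1 library per mouse. Mice ate ad libitum (AL) or a calorie-restricted diet (CR) in which carbohydrates were cut, starting in early adulthood. They were killed at 5 months (5 AL and 5 CR mice) or at 15 months (6 AL and 6 CR mice), so that the older CR mice had also been restricted for longer. Each library is tissue of several cell types, so fewer cells of a type and less RNA per cell cannot be told apart. Sequencing depth per library is unknown from FPKM. The median gene stood at 2.51 to 3.10 FPKM per library.

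Kainate receptors are glutamate-gated cation channels built from 4 subunits. The products of Grik1, Grik2 and Grik3 (GluK1 to GluK3) are the low-affinity subunits, which form channels on their own. The products of Grik4 and Grik5 (GluK4 and GluK5) bind kainate with high affinity and reach the cell surface only together with a low-affinity subunit. Neto1 and Neto2 are single-pass CUB-domain proteins that slow the receptor's gating. In the hippocampus these receptors are best known at mossy fiber synapses onto CA3 pyramidal neurons, in interneurons and on presynaptic terminals, while CA1 pyramidal neurons rely mostly on AMPA and NMDA receptors.

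The 5 Grik genes share an ancestry that is plain in their pore loop. The coding stretches below, of 63 bases each, are shown because they hold both the sequence the subunits have in common and the differences by which 50-base reads are assigned to one gene. Capitals mark the codon of the Q/R site, where RNA editing can recode Grik1 and Grik2.

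Grik1: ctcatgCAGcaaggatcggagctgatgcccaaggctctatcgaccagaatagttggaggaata
Grik2: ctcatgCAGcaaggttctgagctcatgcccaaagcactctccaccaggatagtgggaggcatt
Grik3: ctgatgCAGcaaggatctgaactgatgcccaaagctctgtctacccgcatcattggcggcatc
Grik4: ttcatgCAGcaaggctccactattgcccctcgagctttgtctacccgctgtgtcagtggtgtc
Grik5: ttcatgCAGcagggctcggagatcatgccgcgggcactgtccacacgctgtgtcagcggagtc

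The sequences are from GENCODE M21 transcripts (GRCm38, the assembly of the authors' mm10), read 5′ to 3′ on the coding strand. The Grik3 stretch lies on the plus strand in exon 12 (chr4:125691201-125691213) and exon 13 (chr4:125693962-125694011) of 16. Grik1 has it on the minus strand in exon 13 (chr16:87940538-87940550) and exon 14 (chr16:87936066-87936115) of 18, and Grik2 on the minus strand in exon 13 (chr10:49244325-49244337) and exon 14 (chr10:49240747-49240796) of 17. In both high-affinity genes the stretch sits within a single exon of the minus strand, exon 16 of 21 of Grik4 (chr9:42547569-42547631) and exon 15 of 20 of Grik5 (chr7:25022443-25022505). The codon in capitals was the same in all 5 genes. Among the low-affinity genes 11 to 14 of the 63 bases differed, the 2 high-affinity genes differed at 17 bases, and pairs across the 2 classes differed at 22 to 29 bases. No pair shared an identical run longer than 14 bases here. Over the full annotated transcripts, 0 windows of 50 bases were shared between any 2 of the 7 genes. Windows shared with other genes made up 0.0% (Neto2) to 0.448% (Grik3) of each gene's windows for 6 genes and 2.04% for Neto1, which overlaps an antisense transcript over 219 exonic bases. Grik4 and Neto2 overlap small RNA genes over 59 and 20 exonic bases. The library kit does not mark strand, so reads from an antisense overlap could not be assigned to one strand.

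FPKM is scaled to transcript length, so levels can be compared between genes. Grik5 was the most abundant of the 7 in each of the 22 libraries, at 49.8 to 92.6 FPKM, and its mean over all libraries was higher than that of 91.7% of the genes tested. Neto1 followed with a mean of 29.5 FPKM, Grik2 with 18.1, Grik4 with 13.3, Neto2 with 11.2, Grik3 with 10.7 and Grik1 with 5.87. Grik5 did not overlap with any other member in any group. Neto1, the next, was apart from the members below it in CR mice at 5 months, but in AL mice of that age its lowest library (20.6 FPKM) was below the highest of Grik4 (22.6) and close to the highest of Grik2 (20.5). At 5 months Grik2 and Grik4 could not be ranked, since in both diets only 3 of 5 libraries had them in the order of the group means. At 15 months Grik2 was above Grik4 in every library of both diets, in AL mice at 15.8 to 19.6 against 6.23 to 11.6 FPKM. Grik3 was above Grik1 in all 10 libraries at 5 months, although the ranges of the 2 genes overlapped across libraries. At 15 months in AL mice the order changed, and Grik3 (mean 15.8 FPKM) stood above Neto2 (12.2) in 5 of 6 libraries and below Grik2 (18.1) in all 6.

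**Figure D1:**
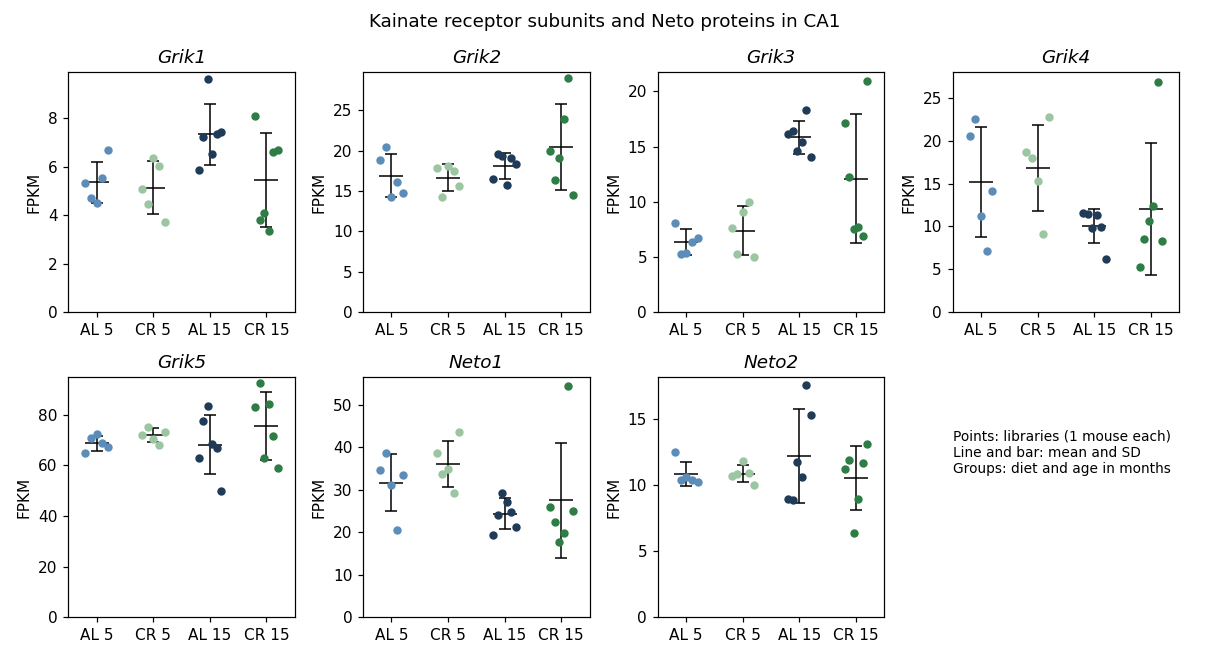
FPKM (y axis, from 0) of each gene in each library (points) in the 4 groups of diet and age in months (x axis), with the group mean and SD (line and bar, n = 5, 5, 6 and 6). The AL 15 month libraries lie above every AL 5 month library for Grik3, and 1 CR 15 month library stands far above the others of its group for Grik4 (26.9 FPKM) and Neto1 (54.5 FPKM).

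Markers of hippocampal fields and of neighbouring tissue differed between the older and the younger libraries, with calls for the field and neocortex lists in AL mice. Of 7 CA1 pyramidal neuron markers, 4 fell from 5 to 15 months in AL mice and 0 rose, although none was at 0 in any library. Fibcd1, a CA1 marker, went from a mean of 62.0 to 10.1 FPKM, whereas Wfs1, another one, had means of 56.5 and 83.4 FPKM. The summed FPKM of the CA1 list was 223 to 492 in AL mice at 5 months, 292 to 435 in CR mice at 5 months, 189 to 279 in AL mice at 15 months and 85.4 to 427 in CR mice at 15 months. Of 9 markers of neocortex and subiculum, 5 rose in AL mice and 0 fell, none at 0 in any library. Their summed FPKM was 55.5 to 95.3 (AL) and 40.8 to 76.2 (CR) at 5 months, and 84.0 to 168 (AL) and 44.8 to 203 (CR) at 15 months. The CA3 pyramidal neuron list (7 markers, 1 higher and 3 lower with age in AL mice, none at 0) summed to 51.0 to 139 and 44.4 to 142 at 5 months, and to 47.9 to 80.5 and 36.6 to 169 at 15 months, AL first. In AL mice 2 of 7 dentate granule cell and 3 of 7 choroid plexus markers also fell and 2 of 5 thalamus markers rose, and of the interneuron, oligodendrocyte, astrocyte and microglia lists 1 gene or 1 in each direction was called. In CR mice 0 markers of the CA1, CA3, dentate, neocortex and subiculum and thalamus lists were called with age, while 6 of 7 choroid plexus markers fell (summed FPKM 8.96 to 261 at 5 months and 0.327 to 3.02 at 15 months). The age by diet interaction was called for 0 of the markers with limma. Replicate 4 of the CR mice at 15 months had the lowest CA1 score (2.10) and the highest CA3 score (3.99) of the 22 libraries, a score being the mean log2(FPKM + 0.1) of a list.

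The comparison of 15 vs. 5 month AL mice asks how CA1 expression changed with age under normal feeding. Grik3 was the 1 member of 7 that was differentially expressed (limma, Benjamini-Hochberg adjusted p under 0.05 over all genes tested). It rose, while 20.6% of all genes tested were called in this comparison and 10.7% were called higher, so 1 of 7 is near the share found over all genes. At an unadjusted p under 0.05 limma called 2 members, Grik1 and Grik3, against 35.2% of all genes.

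Among the low-affinity subunits, Grik3 stood at 8.07, 5.28, 5.37, 6.38 and 6.69 FPKM in the 5 AL mice of 5 months. In the 6 AL mice of 15 months it ranged from 14.1 to 18.3 FPKM with a median of 15.8. The lowest older library was thus well above the highest younger one, and the groups did not overlap, as was the case for 14.0% of all genes tested and for no other member. The group means were 6.36 ± 1.14 FPKM (SD, n = 5) and 15.8 ± 1.50 (SD, n = 6), a log2 difference of 1.31 on the log2(FPKM + 0.1) scale (SE 0.25, limma adjusted p = 0.00139). An exact two-sided permutation test gave p = 0.00216, the smallest that 462 relabelings allow. The adjusted p ranged from 8.66e-05 to 0.458 over the alternatives tried. The highest came with the region score, which is the neocortex and subiculum score minus the CA1 score, as a covariate: the Grik3 difference was then 0.70 (95% interval -0.03 to 1.44) and was no longer called. With that covariate 0 of the 16978 genes were called in this comparison, and 1973 had an unadjusted p under 0.05. That score averaged -2.85 (-3.47 to -1.86) in AL mice at 5 months and -0.17 (-0.96 to 0.31) at 15 months, so it did not overlap between the groups either. The part of tissue make-up in the Grik3 difference was not tested.

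Grik1, whose product is prominent in interneurons, had 5.33, 4.73, 4.49, 5.53 and 6.68 FPKM in the younger AL mice and 5.89 to 9.60 FPKM, median 7.29, in the older ones. All 6 older libraries were above the younger median and 4 were above the highest younger library, so the ranges overlapped. The log2 difference was 0.45 (SE 0.20, limma adjusted p = 0.121; exact permutation p = 0.0108, unadjusted), and Grik1 was called (adjusted p = 0.0312) only in a fit of these 2 groups alone. The fit of these 2 groups alone called 4313 of all 16978 genes. With the region score as a covariate the Grik1 difference turned to -0.35 (adjusted p = 0.552). Grik2, the main low-affinity subunit of the principal neurons, had 18.8, 20.5, 14.3, 16.1 and 14.8 FPKM at 5 months and 15.8 to 19.6, median 18.7, at 15 months. These ranges largely coincided, and the difference of 0.11 had a 95% interval of -0.18 to 0.40.

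Both high-affinity subunits missed the threshold. Grik4 was the most uneven member at 5 months, with 20.6, 22.6, 11.3, 7.14 and 14.1 FPKM in AL mice, a coefficient of variation of 42.4%. At 15 months it lay between 6.23 and 11.6 FPKM with a median of 10.7, below the younger median in every library. The log2 difference was -0.50 (SE 0.34, 95% interval -1.20 to 0.21, limma adjusted p = 0.309). With the CA3 score as a covariate, a fit added after seeing the data, it was 0.06. Grik5 had 64.6, 70.7, 72.2, 68.6 and 67.2 FPKM in the younger mice, the tightest values of the 7 genes (coefficient of variation 4.31%). In the older mice it spread from 49.8 to 83.2 FPKM with a median of 67.5. The difference was -0.03, with a 95% interval of -0.27 to 0.21.

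Of the auxiliary proteins, Neto1 had 34.7, 38.6, 31.1, 20.6 and 33.4 FPKM at 5 months and 19.5 to 29.4, median 24.5, at 15 months in AL mice. All 6 older libraries were below the younger median, but the lowest younger library, replicate 3, was below all but 1 of them. The log2 difference was -0.36 (SE 0.22, limma adjusted p = 0.239), and -0.84 with the region score as a covariate (adjusted p = 0.313) or -0.077 with the CA3 score. Neto2 had 12.5, 10.4, 10.7, 10.4 and 10.3 FPKM at 5 months and 8.90 to 17.6, median 11.2, at 15 months. Its older libraries lay on both sides of the younger ones, and the difference was 0.12 (95% interval -0.24 to 0.48).

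In CR mice the same comparison of 15 vs. 5 months called 0 of 7 members with limma, against 3.36% of all genes tested. At an unadjusted p under 0.05 it called 2 members, Grik3 and Neto1, against 18.0% of all genes. No member's groups were apart, against 3.26% of all genes. Grik3 had 7.61, 5.29, 9.05, 10.0 and 5.04 FPKM in the younger CR mice and 6.87 to 21.0, median 9.99, in the older ones. The older CR libraries spread over more than the younger range, with 3 of 6 above the highest younger library and the other 3 within it. The difference was 0.62 (SE 0.25, 95% interval 0.10 to 1.14, limma adjusted p = 0.184; exact permutation p = 0.113), and 0.21 with the region score as a covariate (adjusted p = 0.796). The 3 libraries with the most Grik3 (replicates 5, 0 and 1, with 21.0, 17.2 and 12.3 FPKM) were also those with the highest neocortex and subiculum scores (3.96, 3.41 and 3.02).

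Neto1 was lower in most of the older CR mice. It had 38.5, 33.6, 34.9, 29.2 and 43.7 FPKM at 5 months, and at 15 months 5 of 6 libraries, at 17.8 to 26.0 FPKM, were below all of these, while replicate 4 had 54.5 FPKM. The log2 difference was -0.48 (SE 0.22, limma adjusted p = 0.240), and -0.80 with the region score as a covariate (adjusted p = 0.146) or -0.28 with the CA3 score. Without replicate 4, the library with the highest CA3 score, it was -0.70 and Neto1 was called (adjusted p = 0.0149). That fit called 687 of all 16978 genes. Grik4 had 18.7, 18.0, 15.3, 9.18 and 22.7 FPKM at 5 months and 5.32 to 26.9, median 9.61, at 15 months, and the same replicate was the highest. Its difference was -0.61 (95% interval -1.31 to 0.10, limma adjusted p = 0.361), and -0.23 with the CA3 score as a covariate. Grik1 at 3.35 to 8.11 FPKM, Grik2 at 14.5 to 29.0, Grik5 at 58.7 to 92.6 and Neto2 at 6.40 to 13.1 in the older CR mice differed from the younger ones by 0.03, 0.26, 0.05 and -0.08 in turn, each with an interval that included 0. The AL and CR age comparisons share no libraries. Their difference, the age by diet interaction, was called for 0 of 7 members and for 0.0% of all genes with limma, and at an unadjusted p under 0.05 for 0 members and 7.66% of genes. For Grik3 the interaction was -0.69 (SE 0.35, 95% interval -1.43 to 0.04, limma adjusted p = 0.654), so a smaller rise with age under CR was not shown.

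**Figure D2:**
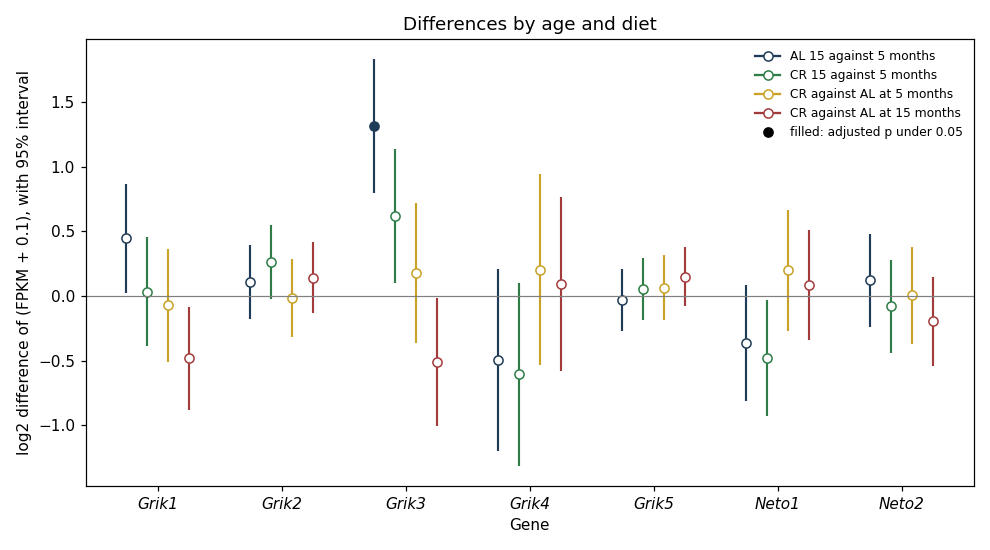
log2 difference of (FPKM + 0.1) with its 95% interval (y axis) for each gene (x axis) in 4 comparisons, filled where the limma adjusted p was under 0.05. Grik3 in AL 15 against 5 months (1.31) is the single filled point.

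The comparison of CR with AL mice of the same age asks what the diet changed. At 5 months 0 of 7 members were called with limma, as were 0.0% of all genes tested, and at an unadjusted p under 0.05 the counts were 0 members and 4.65% of genes. No member's groups were apart, against 1.36% of all genes. The members' log2 differences ran from -0.07 (Grik1) to 0.20 (Grik4). The intervals were narrow for Grik5 (-0.19 to 0.32) and wide for Grik4 (-0.54 to 0.94).

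At 15 months 0 of 7 members were called with limma, against 0.742% of all genes, and 2 members, Grik1 and Grik3, had an unadjusted p under 0.05, against 17.1% of genes. No member's groups were apart, against 0.984% of all genes. Grik1 had 3.35 to 8.11 FPKM in CR mice and 5.89 to 9.60 in AL mice, with 3 of 6 CR libraries below every AL library. Its difference was -0.48 (SE 0.19, limma adjusted p = 0.206; exact permutation p = 0.0866). For Grik3, 4 of 6 CR libraries were below all AL libraries, 1 was within their range and 1 was above it. The difference was -0.51 (SE 0.24, 95% interval -1.01 to -0.02, limma adjusted p = 0.272; exact permutation p = 0.117). With the region score as a covariate it was -0.27. The study's own test, Cuffdiff, listed Grik3 as lower under CR at this age (q under 0.05). The region score itself averaged -1.24 (-3.58 to 0.14) in the older CR mice against -0.17 in the older AL mice, and its part in these differences was not tested. Grik4 and Neto1 differed by 0.09 and 0.08 with all libraries, and by -0.18 and -0.13 without replicate 4 of the CR mice. Grik2, Grik5 and Neto2 differed by 0.14, 0.15 and -0.20, with intervals that included 0. The AL 15 month libraries serve in both this comparison and the AL age comparison.

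Seen as a mixture, subunit mRNA was dominated by Grik5, and the total hardly moved. The summed FPKM of Grik1 to Grik5 averaged 112 ± 8.08 FPKM in the younger AL mice and 118 ± 4.23 in the younger CR mice (SD, n = 5 each), and 119 ± 14.6 in AL and 126 ± 15.0 in CR mice at 15 months (SD, n = 6 each). Within that sum Grik5 made up 61.4% and 61.0% at 5 months and 56.7% and 60.0% at 15 months. Grik3 made up 4.27% to 6.87% in the AL libraries at 5 months and 10.7% to 15.1% at 15 months, without overlap, and 4.19% to 9.03% and 4.87% to 19.2% in CR mice. The 3 low-affinity subunits together went from 22.4% to 27.4% of the sum in AL mice at 5 months to 31.9% to 41.6% at 15 months, and in CR mice they made up 20.2% to 30.3% and 24.3% to 38.6%, which overlap. Most of the move in AL mice lay in Grik3, whose mean share was 5.68% at 5 months and 13.4% at 15 months. The mean shares were 4.79% and 6.18% for Grik1 and 15.0% and 15.3% for Grik2. The ratio of Neto1 to Neto2 averaged 2.92, 3.33, 2.12 and 2.62 in AL and CR mice at 5 months and AL and CR mice at 15 months, with ranges that overlapped. These shares are built from the values already compared and were not tested.

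**Figure D3:**
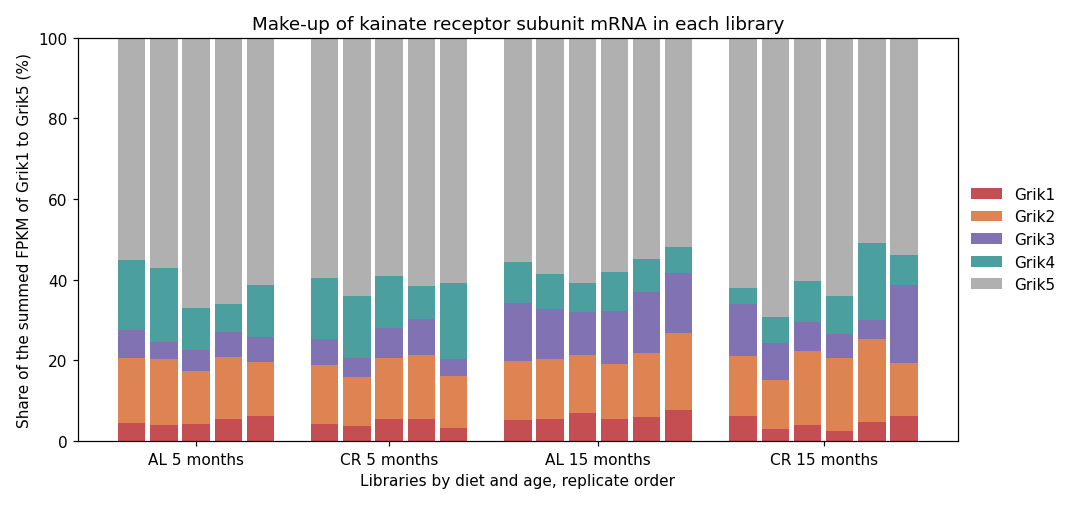
Share of each Grik gene in the summed FPKM of Grik1 to Grik5 (y axis, percent) in each library (bars, by group along the x axis). The Grik3 band is 10.7% to 15.1% in the AL 15 month libraries and 4.27% to 6.87% in the AL 5 month libraries, and Grik5 fills more than any other gene in each bar.

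Kainate receptor mRNA was a minor part of ionotropic glutamate receptor mRNA. Of the summed FPKM of AMPA, NMDA, delta and kainate receptor subunits, the Grik genes made up 13.5% ± 1.61 (SD, n = 5) in AL and 14.2% ± 0.573 (SD, n = 5) in the CR mice of that age, 5 months, and 18.1% ± 1.78 and 17.2% ± 1.94 (SD, n = 6 each) at 15 months. The summed FPKM of the 4 AMPA receptor genes averaged 481 and 321 in AL mice at 5 and 15 months while the Grik sum averaged 112 and 119. In AL mice 1 of 4 AMPA, 1 of 7 NMDA and 1 of 2 delta receptor genes rose with age, and 2, 2 and 0 fell, where 20.6% of all genes were called and 10.7% were called higher. In the other comparisons 0 of these genes were called with limma. At an unadjusted p under 0.05 there were 5 of these genes in the CR age comparison (18.0% of all genes), 0 between diets at 5 months (4.65%), 4 between diets at 15 months (17.1%) and 3 in the interaction (7.66%).

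Partners of the receptors were taken from a list of 22 genes for scaffolds, adhesion proteins, turnover, transport and RNA editing, and each was in the fit. With age in AL mice 5 rose, 2 fell and 15 were not called, against 20.6% called over all genes, and the list's median log2 difference was 0.03 against -0.0018 over all genes tested. The 3 largest changes among the called partners were in Dlg1, Sdcbp and Dlg3, which encode scaffold proteins with PDZ domains, while the scaffold genes Dlg4, Pick1 and Grip1 were not called. Dlg1, which encodes SAP97, rose from 27.6 ± 4.18 FPKM (SD, n = 5) to 46.4 ± 6.71 (SD, n = 6), a log2 difference of 0.74 (limma adjusted p = 0.000831). Sdcbp, which encodes syntenin, fell from 109 to 79.4 FPKM (log2 difference -0.46, adjusted p = 0.0157), and Dlg3, which encodes SAP102, fell from 64.5 to 49.0 FPKM (-0.40, adjusted p = 0.00320). Dlg1 was also the single partner called in CR mice, from 27.5 ± 2.47 (SD, n = 5) to 41.3 ± 8.84 FPKM (SD, n = 6), a log2 difference of 0.56 (adjusted p = 0.0178), where 3.36% of all genes were called. No partner was called between diets at either age or in the interaction with limma, with 1, 4 and 2 of 22 at an unadjusted p under 0.05, against 4.65%, 17.1% and 7.66% of all genes. With the region score as a covariate 0 of 22 partners were called in either age comparison. Of all 16978 genes, 0 were then called in AL mice and 152 in CR mice.

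The members also varied within groups, some of them with the same marker list. The deviations of each gene's log2(FPKM + 0.1) from its group means were compared over the 22 libraries. The sources used do not give the dissection or preparation batch of each library. The correlations are given as descriptions across libraries. Grik4 followed the CA3 score (Pearson r = 0.87, Spearman rho = 0.81, r = 0.79 without the 2 libraries of the most extreme score), and 0.0530% of all genes tested had an r as far from 0. Grik4 is known for strong expression in CA3 pyramidal neurons. Neto1 followed the same score less closely (r = 0.71, rho = 0.59, and r = 0.43 without the 2 most extreme libraries). Grik2 had r = 0.67 with it (rho = 0.62, and 0.62 without those 2), but was farther from 0 with the oligodendrocyte score (r = -0.82, rho = -0.74, and -0.66 without its 2 most extreme libraries, with 0.742% of all genes as far). Grik3 had r = -0.68 with the CA3 score (rho = -0.57, and -0.55).

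Grik3 followed the neocortex and subiculum score instead (r = 0.82, rho = 0.75, and r = 0.76 without the 2 most extreme libraries), with 0.489% of all genes as far from 0. It did so among the 10 libraries at 5 months (r = 0.87) and the 12 at 15 months (r = 0.82). With the region score Grik3 had r = 0.46 (rho = 0.48, and 0.27 without the 2 most extreme), with 17.3% of all genes as far from 0. Grik1 had r = 0.75 with the region score (rho = 0.72, and 0.61 without the 2 most extreme). Over all 22 libraries Grik5 and Neto2 had r between -0.29 and 0.15 with the CA3 and the neocortex and subiculum scores. At 5 months alone, r with the neocortex and subiculum score was 0.84 for Neto2, 0.75 for Grik1 and -0.74 for Grik5. It was 0.30 for Grik2, -0.24 for Grik4 and -0.29 for Neto1. At 15 months it was 0.08 for Neto2, 0.39 for Grik1 and -0.26 for Grik5. Neto2 was farthest from 0 with the astrocyte score (r = -0.66, rho = -0.61, and -0.36 without the 2 most extreme), and Grik5 with the oligodendrocyte precursor score (r = 0.51, rho = 0.32, and 0.14). Among the members, Grik4 and Neto1 deviated together (r = 0.69), as did Grik1 and Grik3 (r = 0.56), while Grik3 and Grik4 deviated in opposite directions (r = -0.54). Of the 21 pairs, these were the most extreme.

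**Figure D4:**
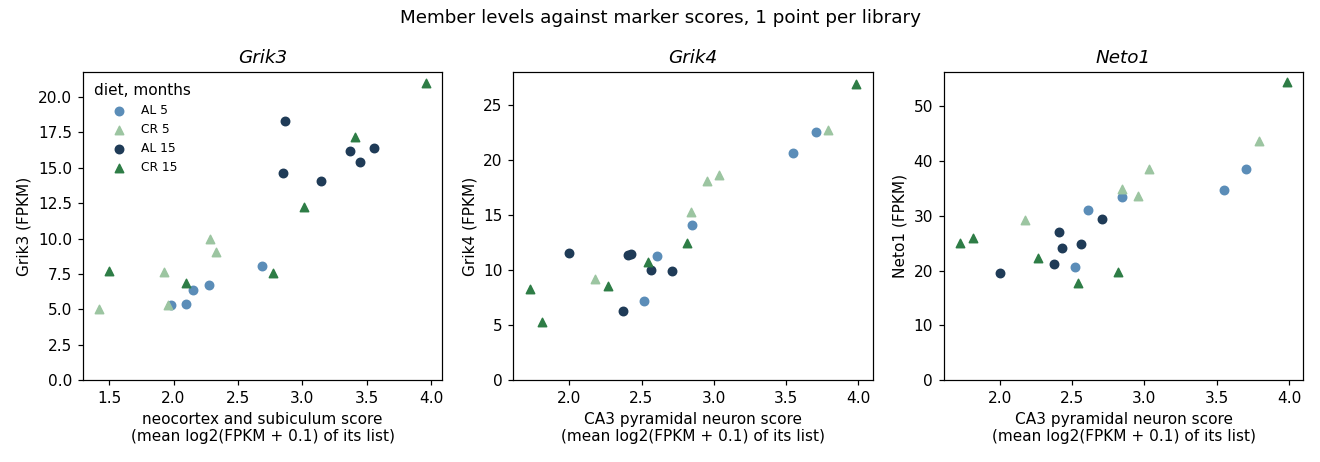
FPKM (y axis) of Grik3 against the neocortex and subiculum score and of Grik4 and Neto1 against the CA3 score (x axes, mean log2(FPKM + 0.1) of each list), 1 point per library, by diet and age in months. Replicate 4 of the CR mice at 15 months is the library at the upper right for Grik4 (26.9 FPKM) and Neto1 (54.5 FPKM), with a CA3 score of 3.99.

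Of the 13838 genes with a mean of at least 1 FPKM, the 3 whose deviations were most like those of Grik3 were Kcnt1, a sodium-activated potassium channel (r = 0.89), Asic1, an acid-sensing cation channel (r = 0.86), and Mcoln1, a lysosomal cation channel (r = 0.86). All 3 rose with age in AL mice, by log2 differences of 1.29, 0.90 and 0.26 (limma adjusted p = 0.00587, 0.00279 and 0.0260). In that comparison 20.6% of all genes tested were called and 10.7% were called higher. Most like Grik4 were Ostf1 (r = 0.90), Bok (0.88) and Mpp3 (0.87), of which Bok is one of the CA3 markers used above. For Neto1 they were Ap2a2 (r = 0.91), an adaptor subunit of endocytosis, C230081A13Rik (0.90) and Unc5c (0.90), a netrin receptor. Grik1 was most like Plxnc1 (r = 0.88), Grb10 (0.87) and Slc7a3 (0.86), and Grik2 most like Stc1 (0.90), Mpdz (0.85) and Ccnjl (0.85). Grik5 was nearest to Nisch, Prrc2a and Begain (0.89, 0.89 and 0.88), and Neto2 to Btbd10, Syt4 and Cntn4 (0.91, 0.88 and 0.88). Among the genes listed for members other than Grik3, Grb10, Ostf1 and Cntn4 were also called with age in AL mice. Their log2 differences were 1.08, -0.72 and 0.94 (limma adjusted p = 0.000602, 0.0363 and 0.0204), and the rest were not called.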

How the data were processed

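mRNA libraries of microdissected CA1 (TruSeq v2, paired-end reads of 50 bases) were measured in 4 groups, as the labels name them. Per the study's methods and the submitters' processing notes, TopHat placed the reads on mm10, Picard took out probable PCR copies, and the authors obtained the deposited FPKM values from Cufflinks, with fragment bias corrected and multi-mapping reads weighted. Reads that map to several places are thus shared out by estimate. Between members no window of 50 bases was shared in the annotated transcripts. The annotation release and the sequencing run of each library were not given in the sources used here, and run and group cannot be told apart. Values were used as deposited, and 0 value columns were left out. Counts could not be recovered: at most 0.0972% of genes lay on a common ratio between libraries, within a tolerance of 1e-04.

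log2(FPKM + 0.1) of genes with a mean of at least 0.1 FPKM was fitted in R 4.3.3 with limma 3.58.1 (1 mean per group over all 22 libraries, eBayes with trend, two-sided, Benjamini-Hochberg over all genes tested, called at 0.05). The authors' own test, Cuffdiff, needs reads and was not run. By that test the study listed Grik3 as higher in normal aging and lower under CR in older mice (q under 0.05). The fit was tested on simulated data in which genes varied independently, so that test does not cover variation shared between genes. Single members were also compared by exact permutation tests of mean log2(FPKM + 0.1) (Python 3.11.15, scipy 1.17.1), unadjusted. All 7 members were named, with the called partners of the 3 largest log2 differences per comparison (all where 5 or fewer) and the 3 genes most like each member. Marker genes were named only as checks of a list. The members and lists were chosen with earlier results of these data known. Alternatives were pseudocount, filter, scaling, trend, separate fits, a replicate block, the region score, each library left out and, added after seeing the data, the CA3 score.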

Additional observations from a re-analysis of the deposited data

Results flagged for a closer look

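A library far from the others of its group was looked for in each of 28 sets of 1 member and 1 group. Dixon's rule was applied to FPKM, not to its log2 as in the other tests, and 4 were found. Chance alone flags about 1 in 20 groups. Replicate 4 of the CR mice at 15 months was the highest for Grik4, at 26.9 FPKM with the nearest library at 12.4, and for Neto1, at 54.5 FPKM with the nearest at 26.0. The same library had the highest CA3 score (3.99) and the lowest CA1 score (2.10), whose part in these values was not tested. Replicate 5 of the AL mice at 15 months was the lowest for Grik4, at 6.23 FPKM with the nearest at 9.86. Replicate 0 of the AL mice at 5 months was the highest for Neto2, at 12.5 FPKM with the nearest at 10.7.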

How the results depend on the processing

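FPKM holds no read counts, so the precision of low values could not be set, and 5 or 6 mice per group limit it. The limma result for Grik3 in AL mice of 15 vs. 5 months kept its direction under 22 alternatives and its call under all but the region score. The members called there were 2 in the separate fit of the groups (Grik1 and Grik3), a fit that called 4313 of all 16978 genes. With the region score 0 members were called, a setting under which 0 of all 16978 genes were called there, and the cause was not tested. Partners called were 4 with a common median and 0 with the region score in AL mice, and 0 in the separate fit and with the region score in CR mice. Over all genes these settings called, in turn, 3727 and 0 in AL mice and 324 and 152 in CR mice. Leaving out each library in turn left 0 to 1 members (Neto1 without CR replicate 4 at 15 months) and 0 to 2 partners called in the CR age comparison, 0 partners being without CR replicate 4 at 5 months and 2 without CR replicate 4 at 15 months. Over all genes these fits called 331 to 775. Of 840 log2 differences of single members under the alternatives, 795 kept direction and side of the threshold and 42 changed sign, none of them a called value. With the region score, AL age gave Grik1 -0.35, Grik2 -0.042, Grik5 0.21 and Neto2 -0.24, CR age gave Grik1 -0.51, and the interaction gave Neto1 0.037. With the CA3 score, AL age gave Grik4 0.056, CR age Grik1 -0.019, diet at 5 months Grik2 0.011 and diet at 15 months Grik4 -0.0043. A common median and quantile normalization gave Neto2 -0.0084 and -0.0078 for diet at 5 months, and quantile normalization gave Grik5 0.036 for AL age. Leaving out 1 library gave Grik5 -0.092 to 0.056 for AL age. For CR age it gave Grik1 -0.094 to 0.16, Grik5 -0.0084 to 0.12 and Neto2 -0.15 to 0.055. For diet at 5 months it gave Grik1 -0.16 to 0.034, Grik2 -0.069 to 0.060, Grik4 -0.037 to 0.40 and Neto2 -0.025 to 0.057, and at 15 months Grik4 -0.18 to 0.29 and Neto1 -0.13 to 0.19. For the interaction it gave Grik4 -0.38 to 0.13, Grik5 -0.0017 to 0.15 and Neto1 -0.33 to 0.029.

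With the replicate block, Grik3 differed by 1.24 in AL mice (limma adjusted p = 0.00400), Grik5 by 0.047, and Grik1 in CR mice by -0.0056. The block changed no call of a member or partner. Over all genes the diet comparison at 15 months called 126, against 323 with the block, 77 with quantile normalization, 6 with the region score, 0 in the separate fit and 15 to 732 with each library left out. CR age called 570 genes, against 304 at a mean of at least 1 FPKM, 324 in the separate fit, 152 with the region score and 331 without replicate 1 or 347 without replicate 4 of the CR mice at 5 months. AL age called 3502, and 2146 with the CA3 score. The deviations of 31 same-numbered pairs of libraries correlated at -0.14 to 0.16, with 2 pairs above 0.1. Pairs with different numbers were not compared with these, so whether a shared number marks a pairing or batch was not tested.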
